A study of Mus musculus with 62 samples.

Results

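The 32 genes described here are the class I and class II genes of the mouse major histocompatibility complex (MHC) and the genes that process antigen for them. They were chosen by symbol as members of this pathway and are 32 of the 55487 genes in the count table. Of these, 11 are class I genes including B2m, 10 are class II genes, and 11 process peptides or regulate the pathway. Quadriceps muscles of 62 male mice were profiled by sequencing of polyadenylated RNA in a full factorial of voluntary wheel running (Training or noTraining), nicotinamide riboside (NR or noNR), a form of vitamin B3 that cells turn into NAD, and pterostilbene (PT or noPT), a plant stilbenoid. The running groups were Training_NR_PT (8 mice), Training_NR_noPT (7), Training_noNR_PT (8) and Training_noNR_noPT (7). The non-running groups were noTraining_NR_PT, noTraining_NR_noPT, noTraining_noNR_PT and noTraining_noNR_noPT, with 8 mice each. In all, 30 mice ran and 32 did not, 31 received NR and 31 did not, and 32 received PT and 30 did not. NR was intravenous according to the title of the series, while strain, age and dose are stated in none of the labels used here. Mice were terminated on 8 days in 2 cohorts of 31, and on each day the running mice were taken at the other time of day (morning or noon) from the non-running mice, so that 0 of 16 sessions held both.

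MHC class I molecules are pairs of a heavy chain and beta-2 microglobulin that display peptides from inside the cell to CD8 T cells. Peptides cut by the proteasome are carried into the endoplasmic reticulum by the TAP transporter and loaded there with the help of tapasin. Class II molecules are made mainly by macrophages, dendritic cells and B cells, display peptides from the lysosome to CD4 T cells, and travel there with the invariant chain Cd74. Interferons raise both arms, class I through the regulator Nlrc5 and class II through Ciita, and resting muscle fibres are known for low levels of class I.

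Total counts ran from 5.64 to 30.8 M per library (median 16.1 M), and the 32 genes together took 0.0458 to 0.122% of them (median 0.0680%). The 8 myofibre markers, among them Acta1 and Myh4, summed to 127300 to 218000 CPM (counts scaled to library size after TMM normalisation) in the 62 libraries, and the muscle label matched its defining markers. In all, 3 libraries stood apart. Training_NR_noPT replicate 1 was the shallowest, had a TMM factor of 0.687 (0.956 to 1.06 in the others) and held 18490 CPM of ribosomal-RNA-like genes (median 14.6 CPM). Training_NR_PT replicate 6 held 461 CPM of 8 hepatocyte markers, with all 8 at their highest there, against at most 2.82 CPM in any other library. In noTraining_noNR_noPT replicate 3, 13 interferon-inducible GTPase genes summed to 645 CPM, against a median of 121 CPM and at most 265 CPM elsewhere, and 12 of the 32 genes had their highest level. Results are given with and without these 3 libraries where they move.

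Per kilobase of transcript model, the light chain and the invariant chain were the most abundant of the set. B2m, the class I light chain, averaged 127 CPM per kb over the 62 libraries, and the classical heavy chains H2-D1 and H2-K1 averaged 42.6 and 30.1 CPM per kb. Among class II genes Cd74 led with 54.4 CPM per kb, ahead of the antigen-presenting chains H2-Eb1 (15.1), H2-Aa (11.03) and H2-Ab1 (10.7 CPM per kb). The lowest B2m library lay above the highest H2-D1 library on this scale, whereas the ranges of H2-D1 and H2-K1, and those of H2-Aa and H2-Ab1, overlapped, as the plot of levels by gene shows. Tapbp, or tapasin, which bridges TAP and class I, was the highest processing gene at 10.0 CPM per kb, followed by the lysosomal protease Ctss (7.97) that trims the invariant chain and the lysosomal thiol reductase Ifi30 (6.73 CPM per kb).

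**Figure D1:**
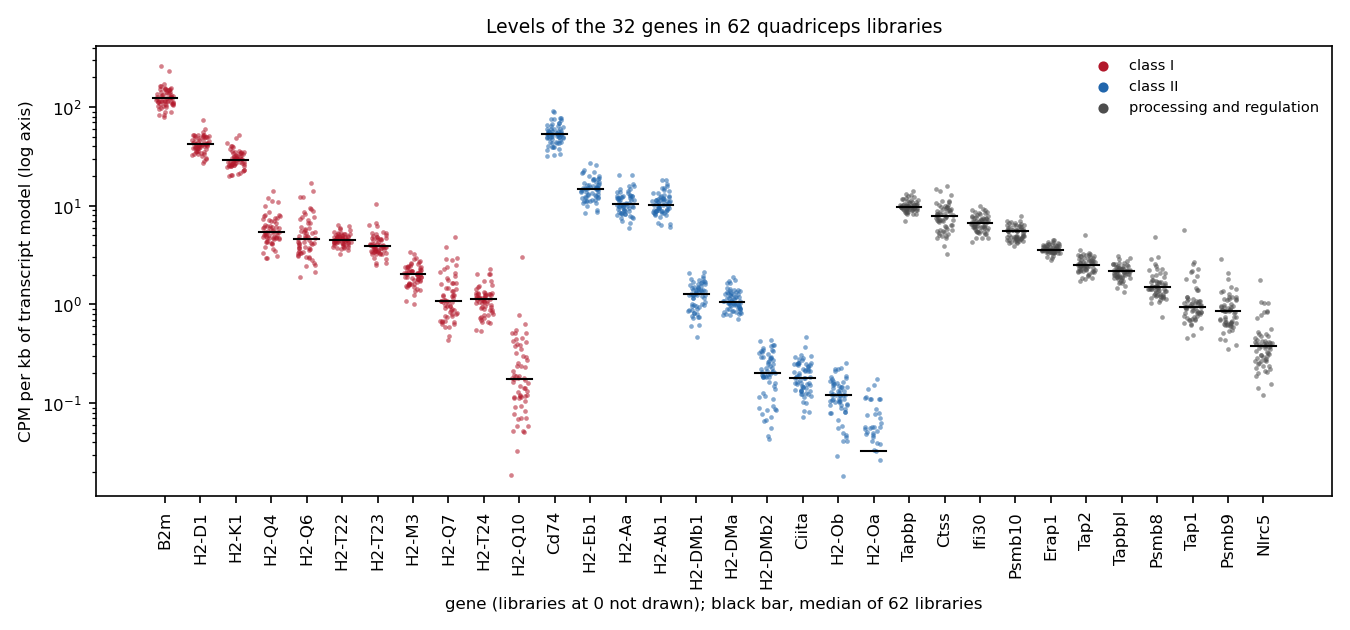
Level of each of the 32 genes in 62 quadriceps libraries, in TMM-scaled CPM per kilobase of transcript model on a log axis; each point is 1 library and the black bar is the median. B2m averaged 127 CPM per kb and H2-Oa 0.0392 CPM per kb, and H2-Q10 had the widest spread.

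The lower part of the set held the regulators and the accessory class II chains. Nlrc5, the transactivator of class I genes, averaged 0.432 CPM per kb and Ciita, the transactivator of class II genes, 0.193 CPM per kb. H2-Ob and H2-Oa, the chains of the H2-O dimer that restrains peptide exchange and is known from B cells, averaged 0.121 and 0.0392 CPM per kb. H2-Oa had a count of 0 in 29 libraries and was the only gene of the 32 that did not pass the low-count filter. The immunoproteasome subunits differed, with Psmb10 at 5.38, Psmb8 at 1.63 and Psmb9 at 0.905 CPM per kb.

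Variation between mice was uneven across the set. Erap1, the aminopeptidase that trims peptides for class I, had a coefficient of variation of 9.49% over the 62 libraries, and its highest library was 1.59-fold above its lowest. For H2-Q10 the coefficient was 148% and the ratio of highest to lowest library 165-fold, on a median of 13 counts per library. The interferon-responsive genes lay between, with ratios of 14.8-fold for Nlrc5, 12.2-fold for Tap1, 11.1-fold for H2-Q7 and 8.16-fold for Psmb9.

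The genes lie mostly together, and some are near copies of each other. In mm10 coordinates, 23 of the 32 lie on chromosome 17 between 33915899 and 37274484, a span of 3.36 Mb, and B2m (2:122147686-122153083) and Nlrc5 (8:94434356-94527272) are among those elsewhere. Of the 52-base windows of H2-Q7 transcripts (17:35439155-35443734), 25.5% also occurred in another gene, most often H2-Q10 (17:35470089-35474563), of whose windows 18.3% were shared. The share was 33.0% for H2-T22, 30.5% for H2-Q6, 23.8% for H2-DMb2, 11.5% for H2-D1 and 8.81% for H2-K1, and 0 for 14 members including B2m, Nlrc5, Cd74 and H2-Ab1. Reads of the H2-Q, H2-T22 and H2-DMb genes may therefore be split or lost between copies. Another gene overlapped 21 of the 32 between gene start and end, introns included, on the opposite strand for 19 of them (Tap2 by 3148 bases). Overlap of exons alone was not measured. Where exons overlap, reads of such pairs may not be told apart, because no source used here says whether counting used strand.

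Promoters are shown for 4 genes of the set, because interferon regulatory factor (IRF) and NF-Y binding motifs are the best-known control elements of MHC genes. They are H2-D1 and H2-Q10, which were higher in running mice, the abundant light chain B2m and the class II chain H2-Aa. Each window runs from 250 bases before to 50 bases after the start site in RefSeq annotation of GRCm38.p6, at chr17:35262844-35263143 (plus strand) for H2-D1, chr17:35469839-35470138 (plus strand) for H2-Q10, chr2:122147437-122147736 (plus strand) for B2m and chr17:34287774-34288073 (minus strand) for H2-Aa. Capitals mark the letters AANNGAAA, an IRF core, and CCAAT, the NF-Y motif, on either strand.
H2-D1: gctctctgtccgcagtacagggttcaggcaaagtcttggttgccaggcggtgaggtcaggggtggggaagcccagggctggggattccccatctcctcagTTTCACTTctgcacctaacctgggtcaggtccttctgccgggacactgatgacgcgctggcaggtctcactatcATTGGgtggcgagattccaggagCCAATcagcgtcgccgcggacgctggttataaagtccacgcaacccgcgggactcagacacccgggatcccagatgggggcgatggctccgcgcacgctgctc
H2-Q10: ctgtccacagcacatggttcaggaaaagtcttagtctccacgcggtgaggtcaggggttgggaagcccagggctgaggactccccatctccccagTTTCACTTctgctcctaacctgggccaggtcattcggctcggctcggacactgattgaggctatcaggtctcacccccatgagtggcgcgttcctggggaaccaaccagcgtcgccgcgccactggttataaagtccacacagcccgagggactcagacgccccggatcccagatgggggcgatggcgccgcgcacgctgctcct
B2m: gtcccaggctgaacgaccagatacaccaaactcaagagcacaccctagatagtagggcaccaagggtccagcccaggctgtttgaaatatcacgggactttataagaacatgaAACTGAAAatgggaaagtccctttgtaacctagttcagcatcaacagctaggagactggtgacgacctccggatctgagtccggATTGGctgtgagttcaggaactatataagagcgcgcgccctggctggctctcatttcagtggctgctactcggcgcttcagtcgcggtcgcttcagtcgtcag
H2-Aa: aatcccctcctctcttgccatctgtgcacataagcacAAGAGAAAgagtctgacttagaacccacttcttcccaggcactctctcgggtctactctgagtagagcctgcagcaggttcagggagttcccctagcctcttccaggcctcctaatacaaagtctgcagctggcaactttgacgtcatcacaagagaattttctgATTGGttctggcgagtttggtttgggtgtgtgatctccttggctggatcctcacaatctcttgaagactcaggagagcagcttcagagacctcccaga

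In H2-D1 and H2-Q10 an IRF core began at positions -150 and -155 relative to the start site, and H2-D1 also held 2 CCAAT boxes where the H2-Q10 window held 0. The B2m window held 1 IRF core, at -137, within a longer interferon-stimulated response element (ISRE, 2 copies of GAAA separated by 2 bases of any kind), and 1 CCAAT box. H2-Aa had its IRF core at -213 and its CCAAT box at -48. Of the 25 members with a RefSeq promoter, 15 (60%) held the IRF core, against 26.7% of 27025 genes, and 19 (76%) held CCAAT, against 41.1%. The ISRE, which overlaps the core by construction, was in 5 members (20%, against 3.99% of genes), and TTCNNNGAA, the core of the gamma-interferon activation site, was in 3 (12%, against 9.55%), with both strands searched for each motif. Related promoters were counted separately in these shares. H2-K1, H2-D1, H2-Q4, H2-Q6, H2-Q7 and H2-Q10 held the IRF core in the same letters, and the windows of Tap1 and Psmb9 overlap. The shares are therefore not those of 25 independent promoters. These matches describe letters in the windows and do not show that a factor was bound.

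Between running and non-running mice, 5 of the genes passed the test and all 5 were higher in running mice. With day and time of termination in the model, 29 of the 31 genes tested had a positive log2 fold change between 30 running and 32 non-running mice, with a median of 0.18 against 0.01 over all 14549 genes. At the threshold, 5 genes passed an adjusted p of 0.05 in edgeR's quasi-likelihood test and all were higher, namely H2-D1, H2-Q10, H2-Ab1, Tap2 and Nlrc5. That is 5 of 31, where 14% of all tested genes passed for running, 8.41% as higher and 5.58% as lower, so the share called was near that of all genes. At an unadjusted p below 0.05, 16 members were higher and 1 lower, against 28.5% of all genes in either direction. Whole muscle was sequenced, so a change in the number of cells that make an RNA and a change in RNA per cell cannot be told apart here.

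**Figure D2:**
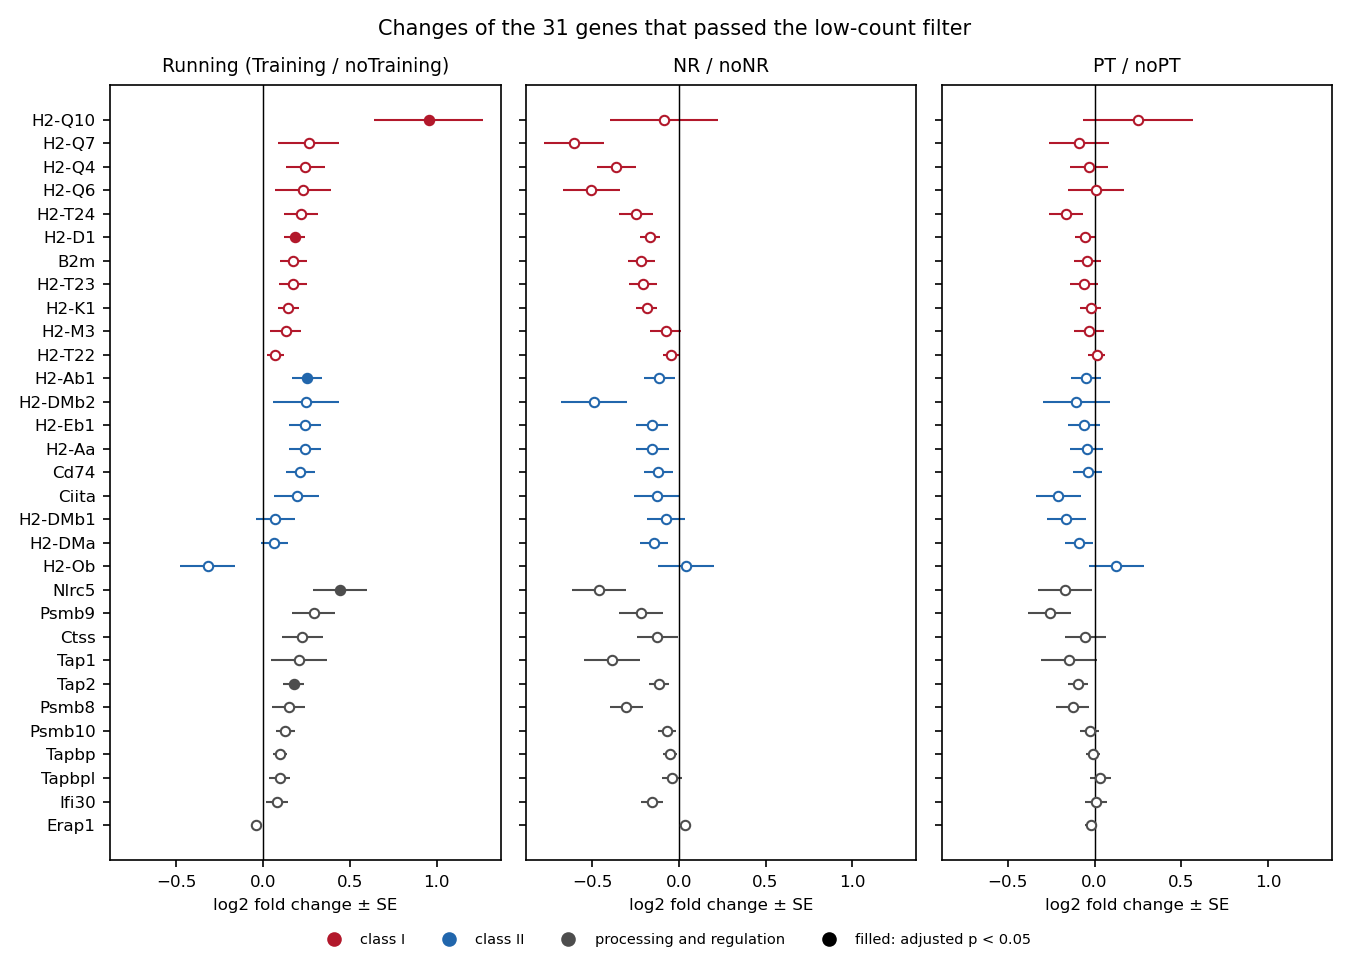
Log2 fold changes with standard errors of the 31 genes that passed the low-count filter, for running, NR and PT, in edgeR's fit to 62 libraries; filled points passed an adjusted p of 0.05. For running 29 genes lie above 0 and 5 are filled, and for NR 29 lie below 0 and 0 are filled.

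Among class I genes all 11 were above 0 for running, with a median of 0.18, and 2 were called. H2-D1 had a lowest, median and highest level of 86.4, 114 and 192 CPM in running mice, against 69.8, 102 and 156 CPM in non-running mice. The 2 ranges overlapped over most of their length, and the means were 117 ± 20.9 CPM (SD, n = 30) and 103 ± 20.02 CPM (n = 32). The log2 fold change was 0.18 ± 0.06 (SE, 1.13-fold) with an adjusted p of 0.0327 by edgeR, and the running mouse was higher in 20 of 30 pairs of mice matched for day and supplements. The 2 mice of each running pair were taken at different times of day, for which the pair counts here and below are not adjusted. H2-K1, the other classical heavy chain, and B2m had log2 fold changes of 0.15 and 0.17 that did not pass (edgeR adjusted p = 0.108 and 0.123).

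H2-Q10, a secreted class I heavy chain known chiefly from liver, had the largest estimate of the set. Its level was 0.143, 0.963 and 13.2 CPM (lowest, median and highest) in running mice, against 0.0802, 0.595 and 2.24 CPM in non-running mice. Only 1 running mouse lay far above the rest, Training_NR_PT replicate 6 with 13.2 CPM and 192 counts, and the next library had 3.38 CPM. The log2 fold change was 0.95 ± 0.31 (1.94-fold, edgeR adjusted p = 0.0331). Without that library it was 0.67 with an adjusted p of 0.0669, so the call rests on it. The same library held 274 CPM of Alb, the gene of serum albumin, where the next had 2.13 CPM. Over the 62 libraries Pearson's r between the log2 levels of H2-Q10 and Alb was 0.578 and Spearman's rho 0.245 (permutation p = 0.00076 and 0.055, adjusted 0.000967 and 0.0642 over 14 gene pairs), and r was 0.158 without the 2 libraries farthest from the median of Alb. In the other libraries the 8 hepatocyte markers summed to a highest of 2.82 CPM, and Fga was at 0 counts in 28 of all 30 running and 31 of 32 non-running mice.

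**Figure D3:**
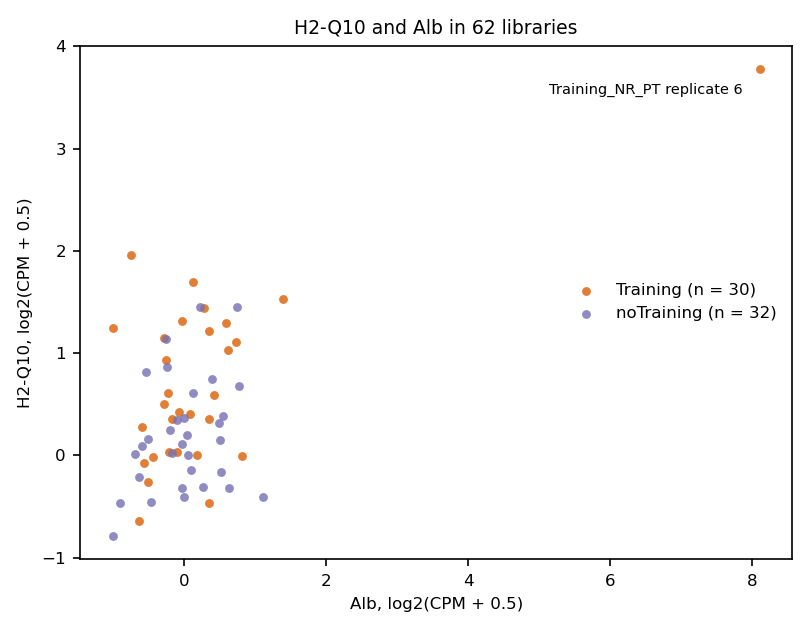
H2-Q10 against Alb in 62 libraries, both as log2(CPM + 0.5), with running mice in orange and non-running mice in purple. Training_NR_PT replicate 6 stands alone at 274 CPM Alb and 13.2 CPM H2-Q10.

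Estimates of the other H2-Q genes and of the H2-T genes were above 0 and did not pass. The Qa-2 genes H2-Q7 and H2-Q6 had log2 fold changes of 0.26 ± 0.17 and 0.23 ± 0.16, and H2-Q4 0.24 ± 0.11 (edgeR adjusted p = 0.33, 0.36 and 0.141). H2-T23, which encodes Qa-1, the ligand of the inhibitory NK receptor CD94/NKG2A, was at 0.17 (adjusted p = 0.155), H2-T24 at 0.22 (0.133), H2-T22 at 0.07 (0.37), and H2-M3, which presents formylated peptides, at 0.13 (0.345), all by edgeR. When the counts of the 9 heavy-chain genes that can share reads, H2-K1, H2-D1 and the H2-Q and H2-T genes, were summed into 1 feature, its log2 fold change for running was 0.17 and did not pass (edgeR adjusted p = 0.076). Without noTraining_noNR_noPT replicate 3 the sum was at 0.19 with an edgeR adjusted p of 0.0371. That non-running library was second highest in the summed level of the class I genes (652.2 CPM). The highest, the running mouse Training_noNR_noPT replicate 3 (681.5 CPM), stayed in this fit, and no fit without only that mouse was made.

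Among class II genes 1 of 9 tested, H2-Ab1, was called for running. Estimates were above 0 for 8 of the 9, with a median of 0.22. H2-Ab1, the beta chain of I-A, was at 21.1, 29.3 and 47.0 CPM in running mice, against 15.8, 24.4 and 40.5 CPM in non-running mice. The running group was shifted up at all 3 points while most mice of both groups overlapped, with means of 30.0 ± 7.19 CPM and 25.3 ± 5.81 CPM (SD, n = 30 and 32). Its log2 fold change was 0.25 ± 0.09 (1.19-fold, edgeR adjusted p = 0.0408), with the running mouse higher in 22 of 30 matched pairs.

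The partners of H2-Ab1 had nearly the same estimates and larger adjusted p-values. H2-Aa, the I-A alpha chain, was at 28.3, 44.3 and 78.4 CPM in running mice, against 22.8, 37.3 and 59.8 CPM in non-running mice, a log2 fold change of 0.24 (edgeR adjusted p = 0.0774). H2-Eb1 was at 0.24 (0.0701) and Cd74 at 0.22 (0.0747), and Cd74 levels were 62.5, 94.2 and 152 CPM in running mice, against 53.3, 84.2 and 129 CPM in non-running mice. The lowest, median and highest running mouse thus each lay above its non-running counterpart for all of these chains. Ciita was at 0.19 (0.333), and the peptide-loading chains H2-DMa, H2-DMb1 and H2-DMb2 were at 0.07, 0.07 and 0.25 (edgeR adjusted p = 0.642, 0.736 and 0.409). H2-Ob was the 1 class II gene below 0, at -0.32 ± 0.16 (adjusted p = 0.175).

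Of the 11 processing genes, 10 were above 0 for running (median 0.15) and 2 were called. Tap2, a subunit of the peptide transporter, was at 8.15, 10.2 and 13.4 CPM in running mice, against 6.57, 8.64 and 18.9 CPM in non-running mice. The highest value belonged to a non-running mouse, noTraining_noNR_noPT replicate 3, although the running median was higher. Means were 10.3 ± 1.33 CPM and 9.24 ± 2.31 CPM (SD, n = 30 and 32), the log2 fold change was 0.18 ± 0.06 (1.13-fold, edgeR adjusted p = 0.0337), and 23 of 30 matched pairs were higher in the running mouse. Tap1, the partner subunit with wider spread, was at 0.20 ± 0.16 (adjusted p = 0.426).

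Nlrc5 had the largest change among the processing genes. It was at 1.89, 3.40 and 9.05 CPM in running mice, against 1.02, 2.40 and 15.0 CPM in non-running mice. Again the top value was noTraining_noNR_noPT replicate 3, while the running median was higher and most mice of both groups overlapped. The log2 fold change was 0.44 ± 0.16 (1.36-fold, edgeR adjusted p = 0.0465), with 22 of 30 matched pairs higher. Without the shallow library Training_NR_noPT replicate 1, whose 9.05 CPM was the highest running value, it was 0.41 with an adjusted p of 0.0667.

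The remaining processing genes did not pass. Psmb9, Psmb10 and Psmb8 had log2 fold changes of 0.29, 0.13 and 0.15 (edgeR adjusted p = 0.109, 0.0935 and 0.315), Tapbp 0.10 (0.105), the tapasin-related Tapbpl 0.09 (0.293), Ctss 0.23 (0.202) and Ifi30 0.08 (0.445). Erap1, the gene with the tightest spread, was at -0.04 ± 0.03 (0.45).

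**Figure D4:**
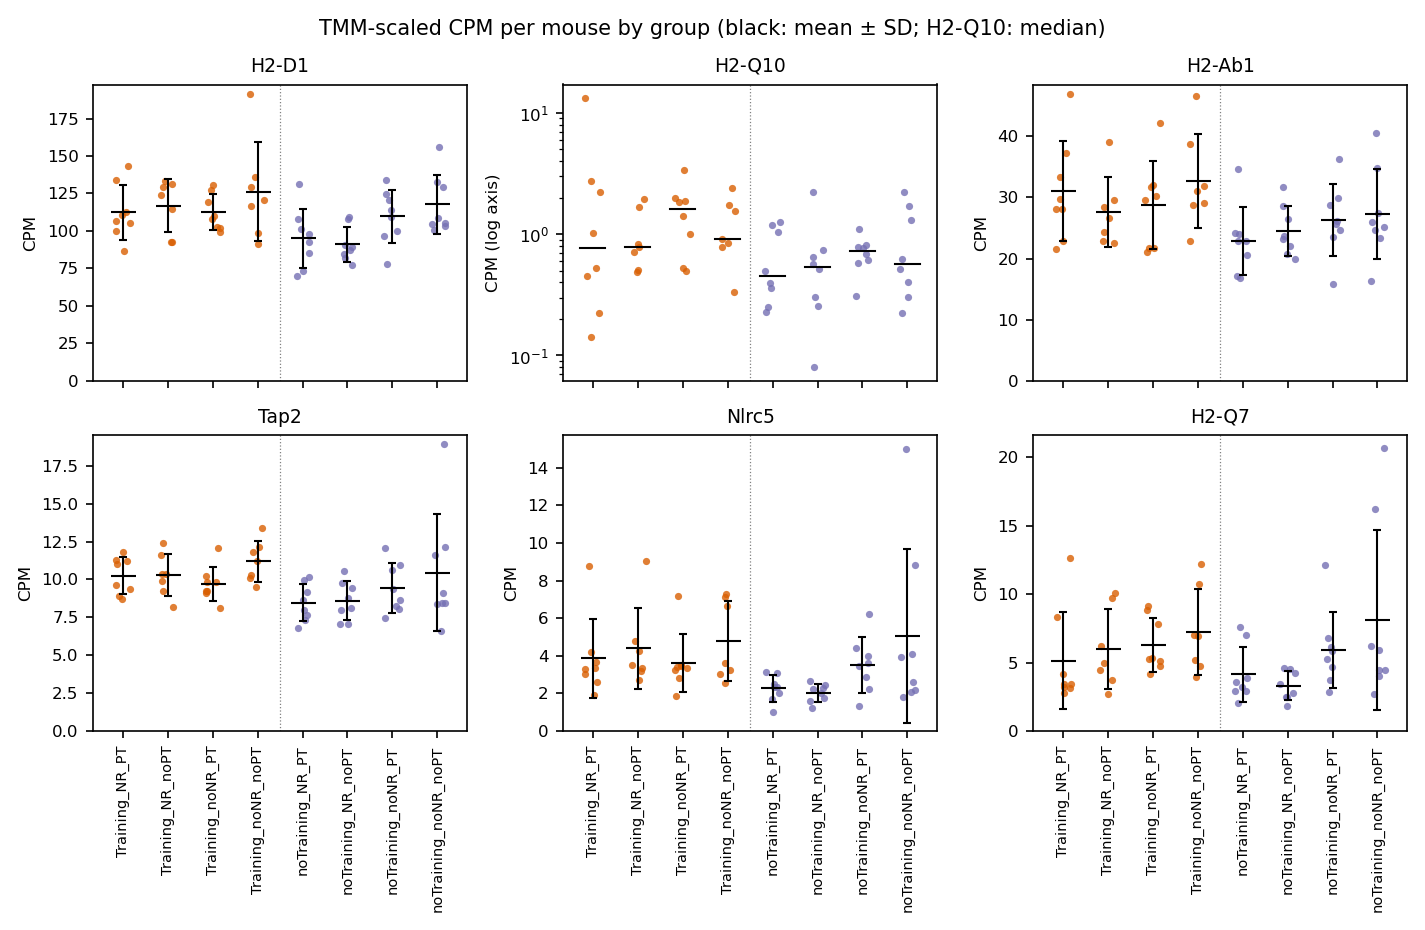
Levels of 6 genes in CPM for each mouse by group, with running groups in orange and non-running groups in purple; black marks are mean ± SD, or the median for H2-Q10 on its log axis. Nlrc5, Tap2 and H2-Q7 have 1 non-running mouse without supplements above all others, and H2-Q10 has 1 running mouse with both supplements at 13.2 CPM.

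The 5 calls were small and depended on which mice were included. Leaving out 1 termination day at a time left between 0 members called (without day 6, where 12.5% of all genes passed) and 11 (without day 2, where 16.1% passed), and all of them were higher. Each cohort alone gave 0 calls, where 0.42% of all genes passed in cohort 2 and 4.31% in cohort 1, with a median of 0.11 in cohort 2 (28 of 31 members above 0) and 0.24 in cohort 1 (28 of 30 above 0). Summing counts per session, so that 16 sessions rather than 62 mice carry the spread, also gave 0 calls, where 7.52% of all genes passed. Without noTraining_noNR_noPT replicate 3 there were 7 calls, where 14.7% of all genes passed, and without all 3 libraries that stood apart there were 8, namely H2-D1, H2-T23, H2-Aa, H2-Ab1, Tap2, Psmb9, Psmb10 and Nlrc5, where 17.6% of all genes passed. Training_noNR_noPT replicate 3, the running mouse with the highest summed class I level (681.5 CPM), was kept when these libraries were left out. The 5 genes were above 0 in all 22 alternative settings. Ranges were 0.09 to 0.25 for H2-D1, 0.62 to 1.14 for H2-Q10, 0.17 to 0.33 for H2-Ab1, 0.12 to 0.24 for Tap2 and 0.28 to 0.52 for Nlrc5. These genes were picked because they were called higher in the same mice, and most settings refit nearly all of those mice. The constant sign is therefore not an independent test of direction. H2-D1 passed in 14 of the 22, H2-Q10 in 12, H2-Ab1 and Tap2 in 9 each, and Nlrc5 in 7.

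**Figure D5:**
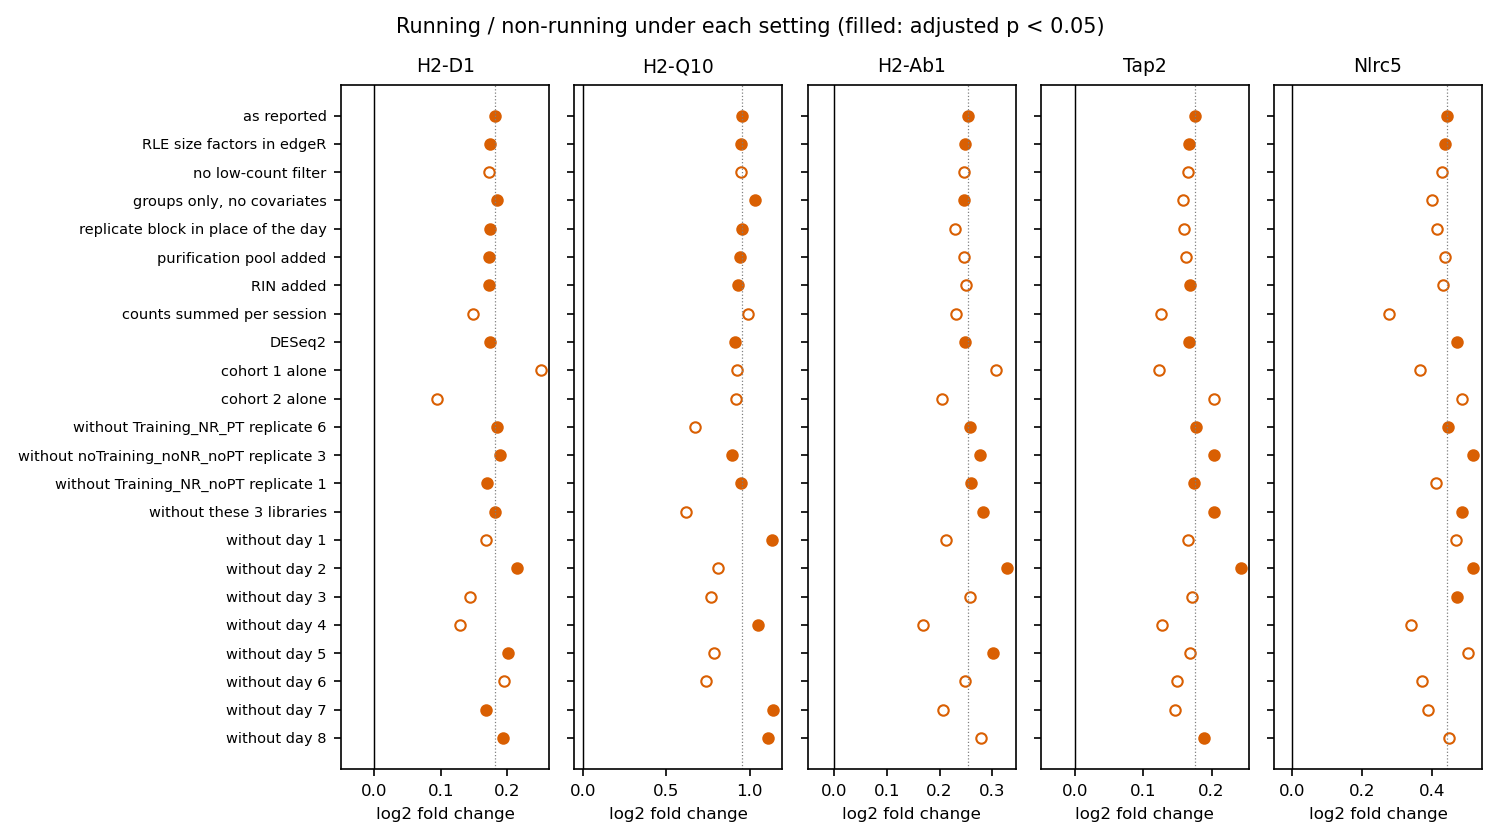
Log2 fold change for running of the 5 called genes as reported and under 22 alternative settings; filled points passed an adjusted p of 0.05 and the dotted line is the reported value. Every point lies to the right of 0, and the filled points number 14 for H2-D1, 12 for H2-Q10, 9 for H2-Ab1 and Tap2, and 7 for Nlrc5 among the alternatives.

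For NR no member passed the test. Of 31 genes 29 had a negative log2 fold change for NR, with a median of -0.15 against -0.00 over all genes. By edgeR 0 members were called, where 0.0206% of all genes (3 genes, 0.0137% higher and 0.00687% lower) were, and DESeq2 called 0 as well. At an unadjusted p below 0.05, 13 members were lower and 0 higher, against 5.69% of all genes in either direction. Class I carried most of these, with 8 of 11, while class II had 1 of 9 and processing genes 4 of 11. Members varied together across mice (r = 0.952 for H2-K1 with H2-D1, 0.946 for H2-Aa with Cd74). Counts of members, in this and the other comparisons, are therefore not counts of independent genes.

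The Qa-2 gene H2-Q7 had the smallest p for NR. Its level was 1.86, 3.60 and 12.6 CPM in NR mice, against 2.71, 5.31 and 20.7 CPM in mice without NR. All 3 points were lower with NR and the ranges overlapped, with means of 4.60 ± 2.61 CPM and 6.88 ± 3.95 CPM (SD, n = 31 each). The log2 fold change was -0.60 ± 0.18 (unadjusted p = 0.00119, edgeR adjusted p = 0.411), and the NR mouse was lower in 23 of 30 matched pairs.

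Other class I and regulatory genes also had estimates below 0 that did not pass. Nlrc5 was at 1.02, 2.65 and 9.05 CPM in NR mice, against 1.32, 3.46 and 15.0 CPM without NR, a log2 fold change of -0.46 ± 0.16 (edgeR adjusted p = 0.591). B2m was at 68.2, 98.4 and 135 CPM in NR mice, against 71.8, 112 and 224 CPM without NR, a log2 fold change of -0.22 ± 0.08 (adjusted p = 0.631 by edgeR). In both genes the median mouse was lower with NR and the 2 ranges overlapped. H2-Q6 was at -0.50, H2-Q4 at -0.36, H2-K1 at -0.19, H2-D1 at -0.17, Tap1 at -0.39 and the immunoproteasome subunit Psmb8 at -0.30 (edgeR adjusted p = 0.564, 0.518, 0.591, 0.636, 0.756 and 0.52).

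Class II estimates for NR did not pass either. H2-Aa, H2-Ab1, H2-Eb1 and Cd74 were between -0.11 and -0.16, and H2-DMb2 was at -0.49 ± 0.19 (edgeR adjusted p = 0.723). By cohort, the median over members was -0.06 in cohort 2 (21 of 31 below 0) and -0.25 in cohort 1 (29 of 30 below 0), and the class II median was 0.01 in cohort 2 and -0.24 in cohort 1. Without noTraining_noNR_noPT replicate 3 the median over members for NR was -0.13, with 13 at an unadjusted p below 0.05.

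Within the 4 arms of running and PT, NR was set against its own controls. In noTraining_noPT mice 29 of 31 members were below 0 for NR (median -0.27), and 15 had an unadjusted p below 0.05, all lower, against 4.01% of all genes. Without noTraining_noNR_noPT replicate 3 these values were 27 members, -0.18 and 9. Replicate 8 of that group, second highest of all libraries in summed GTPase level (265 CPM), was kept. In noTraining_PT mice 27 were below 0 (median -0.18), in Training_noPT mice 30 (median -0.20), and in Training_PT mice 9 (median 0.07), with 1 member at an unadjusted p below 0.05 in each of these 3 arms, against 3.1, 2.91 and 4.59% of all genes. edgeR called 0 members in each of the 4 arms, where 0% of all genes passed in each.

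The lowest log2 fold changes for NR in non-running mice without PT were those of H2-DMb2, Nlrc5 and H2-Q7, and none passed. Nlrc5 had a lowest, median and highest level of 1.22, 2.14 and 2.65 CPM in noTraining_NR_noPT mice, against 1.81, 3.28 and 15.0 CPM in noTraining_noNR_noPT mice. The 2 groups overlapped in their lower parts, while the median mouse without NR lay above the highest NR mouse, and the log2 fold change was -1.16 ± 0.31 (unadjusted p = 0.000517, edgeR adjusted p = 0.639). For H2-Q7 the levels were 1.86, 3.11 and 4.57 CPM in the NR group, against 2.71, 5.19 and 20.7 CPM, a log2 fold change of -1.19 ± 0.35 (edgeR adjusted p = 0.67). Replicate 8 of noTraining_noNR_noPT was second highest of all libraries in H2-Q7, at 16.2 CPM, and had 8.81 CPM of Nlrc5. It stayed in the fit below, which therefore does not give the estimates without both of these control mice. The highest value of both genes was noTraining_noNR_noPT replicate 3. Without it the log2 fold change was -0.84 ± 0.30 for Nlrc5, -0.96 ± 0.35 for H2-Q7 and -1.43 ± 0.39 for H2-DMb2 (edgeR adjusted p = 1, 1 and 0.915).

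The running estimates also differed in size between the supplement arms, without a called difference. In NR_PT mice 28 of 31 members were above 0 for running (median 0.31, 15 at an unadjusted p below 0.05, against 16.6% of all genes). In NR_noPT mice 26 were above 0 (median 0.21, 8 at an unadjusted p below 0.05, against 10.9%). The arms without NR had 28 above 0 in noNR_PT mice (median 0.08, with 1 against 9.22%) and 20 in noNR_noPT mice (median 0.03, with 0 against 6.8%). Without noTraining_noNR_noPT replicate 3 the last of these medians was 0.21, with 27 above 0. edgeR called 0 members in each arm, where 1.7% of all genes passed in NR_PT (0.825% higher, 0.873% lower), 0.447% in NR_noPT (0.406% higher, 0.0412% lower), 0.00687% in noNR_PT and 0% in noNR_noPT mice.

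The test of the difference itself, the running by NR interaction, called 0 members and 0% of all genes by edgeR. It was positive for 27 of 31 members, with a median of 0.18 on the log2 scale, and 4 had an unadjusted p below 0.05, against 3.61% of all genes. These were H2-K1 (0.28), H2-DMb2 (1.08), Nlrc5 (0.84 ± 0.31) and Tapbp (0.17), each with an edgeR adjusted p of 1. Without noTraining_noNR_noPT replicate 3 the median was 0.12 and 2 members had an unadjusted p below 0.05. The NR by PT interaction was positive for 27 members (median 0.17) with 2 at an unadjusted p below 0.05, against 2.25% of all genes. The running by PT and 3-way interactions were positive for 19 and 17 members with 0 at an unadjusted p below 0.05, against 3.51 and 2.77% of all genes, and edgeR called 0 members and 0% of all genes for each of the 3.

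PT gave the smallest estimates of the 3 factors. Of 31 members 25 were below 0, with a median of -0.05, and edgeR called 0 members and 0% of all genes, as did DESeq2 for the members. The direction was not the same in both cohorts, with 14 of 31 members below 0 in cohort 2 and 28 of 30 in cohort 1. Psmb9 alone had an unadjusted p below 0.05 (0.0428), against 3.99% of all genes, and it was lower, with levels of 1.41, 2.86 and 5.24 CPM in PT mice, against 1.28, 3.25 and 10.4 CPM in mice without PT. The lowest values were alike and the highest mouse without PT set that group's range, and the log2 fold change was -0.26 ± 0.12 (edgeR adjusted p = 1).

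No member was called for time of day or cohort. Noon against morning called 0 members and 0% of all genes by edgeR, with 25 members above 0, a median of 0.03 and 1 at an unadjusted p below 0.05, against 5.28% of all genes. Cohort 2 against cohort 1 called 0 members, where 0.131% of all genes passed (0.0344% higher, 0.0962% lower), with 27 below 0, a median of -0.10 and 2 at an unadjusted p below 0.05, against 9.12% of all genes. Purification pool 1 held all of cohort 1 and 5 mice of cohort 2, so pool and cohort can hardly be separated.

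Of the cell marker lists given here, the endothelial list was called throughout for running, and each other list had at most 1 gene called. The part of these cells in the members' changes was not tested. Over all tested genes 14% were called for running, 8.41% as higher. All 11 macrophage markers were above 0 for running (median 0.19) and 1, Cd68, was called. Their summed level was 159, 252 and 392 CPM in running mice (lowest, median, highest), against 127, 217 and 355 CPM in non-running mice. All 6 endothelial markers were called higher (median 0.29), with sums of 198, 281 and 388 CPM, against 189, 229 and 266 CPM. Dendritic cell markers, whose type is rich in class II, had 0 of 6 tested called and a sum of 12.6, 15.1 and 18.3 CPM in running mice, against 11.95, 15.03 and 19.6 CPM in non-running mice. The 5 B cell markers were near the detection limit, at 0.450 to 2.44 CPM in running and 0.305 to 1.55 CPM in non-running mice, and 0 of 5 passed the filter. Of 8 T and NK cell markers 1 was tested and 0 were called, and of 4 fibro-adipogenic markers Lum was called. Ccl21a, the 1 of 4 lymph node markers tested, was not called, at 3.49, 7.52 and 14.8 CPM in running mice, against 2.11, 6.59 and 11.7 CPM in non-running mice.

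For NR, most markers of these cell types were also below 0, and their part in the members' values was not tested. The median log2 fold change was -0.08 over 11 macrophage markers (10 below 0), -0.05 over 6 endothelial markers (6 below 0) and -0.11 over 6 dendritic cell markers (6 below 0), and edgeR called 0 of them. Clec9a, a marker of cross-presenting dendritic cells, was the lowest of these at -0.40 ± 0.12 (edgeR adjusted p = 0.505).

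Other genes of the pathway, from a list of 35, were split in direction under running. Of 34 other pathway genes tested, 18 were above 0 and the median was 0.01. At the threshold 5 were called higher and 2 lower, where 8.41% and 5.58% of all tested genes were. The 5 were the lysosomal proteases Ctsb (0.13, edgeR adjusted p = 8.7e-05) and Lgmn (0.13, 0.0361), the proteasome activator subunit Psme1 (0.12, 0.0271), the neonatal Fc receptor Fcgrt (0.12, 0.0327) and the cytokine signalling inhibitor Socs1 (0.83, 0.0372). The 2 lower genes were the kinase Jak1 (-0.08, 0.00235) and the chaperone Calr (-0.09, 0.00438), which helps class I folding. For NR 24 of the 34 were below 0, the median was -0.02 and edgeR called 0.

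Correlations across the 62 mice were computed for 7 pairs of genes within the set, and all 7 were positive. H2-Aa correlated with Cd74 at r = 0.946 (rho = 0.935) and with H2-Ab1 at r = 0.944 (rho = 0.931), and H2-K1 with H2-D1 at r = 0.952 (rho = 0.958) and with B2m at r = 0.862 (rho = 0.834). H2-K1 with Nlrc5 gave r = 0.770 (rho = 0.671), Psmb8 with Psmb9 0.802 (0.680) and Tap1 with Psmb9 0.752 (0.611). Each of these 7 had a permutation p of 1e-05, the smallest that 100000 resamples can give (adjusted 1.56e-05 over 14 pairs for r and 1.75e-05 for rho). The lowest r of the 7 was 0.664 without the 2 libraries farthest from the median and 0.702 on residuals of the model, both above 0, and cohort values ran from 0.718 to 0.968. All of these levels share the library scaling, and H2-K1 and H2-D1 share 4.75% of H2-D1's windows. Tap1 and Psmb9 overlap by 212 bases on opposite strands, so reads there may count for either.

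Levels of 1 class II gene, H2-Aa, were also set against single markers of other cells, with the highest r for the macrophage receptor gene Csf1r. The correlation of H2-Aa was r = 0.699 with Csf1r (rho = 0.673, both permutation p = 1e-05), 0.498 with the dendritic cell gene Cd209a (rho = 0.484, permutation p = 5e-05 and 8e-05), 0.216 with the endothelial gene Pecam1 (rho = 0.225, p = 0.0935 and 0.0793) and 0.175 with the B cell gene Cd79a (rho = 0.140, p = 0.173 and 0.272). The differences between these correlations were not tested. Marker levels also differed, with median sums of 226 CPM for macrophage, 15.06 CPM for dendritic cell and 0.964 CPM for B cell markers. Low counts limit r, so the order of these values need not follow the cell source. In cohort 2 and cohort 1 r was 0.738 and 0.657 with Csf1r, 0.594 and 0.418 with Cd209a, -0.0481 and 0.425 with Pecam1, and -0.042 and 0.416 with Cd79a. H2-K1 correlated with the interferon response gene Irf7 at r = 0.522 (rho = 0.434, permutation p = 1e-05 and 0.0006) and with Pecam1 at 0.280 (rho = 0.300, p = 0.0275 and 0.0181), and on residuals of the model the last was 0.0146.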

How the data were processed

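Poly-A RNA of quadriceps from 62 mice was sequenced as 52-base read pairs after TRIzol and column extraction, per the labels' protocols. The authors deposited raw counts of reads per gene for all samples in 1 table. The submitters' processing notes name STAR 2.7.3a, featureCounts 2.0.0 and mm10, with no strand setting or annotation release. Groups, day and time of termination came from the labels.

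From these counts, 14549 genes passed edgeR's filterByExpr (minimum count 10, minimum total 15). edgeR 4.0.16 (R 4.3.3) fitted all 62 libraries with TMM scaling, the 8 groups, day and time, leaving 46 residual degrees of freedom, and quasi-likelihood tests were adjusted over all tested genes by Benjamini-Hochberg at a threshold of 0.05. P-values of this fit rest on the spread between mice, not between sessions, although running did not vary within a session. Permutation p-values of the correlations come from shuffling all 62 mice across groups and days. Correlations used log2(CPM + 0.5) and 100000 permutations (scipy 1.17.1). The edgeR fit and the correlation test were tried on simulated data. The simulated counts held known changes with running and no day, time or session effect. They therefore cannot show whether the p-values for running hold where running does not vary within a session.

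The 32 members and the marker and pathway lists were chosen with earlier results of these data known. All members are accounted for. Members called, the 2 smallest p per class for running and for NR, and the 2 most abundant per class were followed through the alternatives. Levels by condition are printed for only part of these. Alternatives were RLE scaling, DESeq2 1.42.0, no filter, other covariates, sums per session, single cohorts and left-out days. Leaving out single libraries was chosen after seeing the data. Replicate numbers did not pair the mice. Promoters are from RefSeq, GRCm38.p6, found for 25 of 32 members.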

Additional observations from a re-analysis of the deposited data

Results flagged for a closer look

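In 23 of 120 sets of 1 gene in 1 group (19.2%), a library stood apart from its group by Dixon's criterion on the gap to its neighbour. Chance gives about 1 in 20 only where values follow a normal distribution. The criterion was applied to CPM without a log scale, and most of these values were the highest of their group. The share therefore cannot be read as an excess over chance. The libraries recur across genes, and genes of 1 class vary together, so these sets are not independent.

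Training_NR_PT replicate 6 had 13.24 CPM of H2-Q10, the library with hepatocyte transcripts, and replicate 7 of that group had 8.76 CPM of Nlrc5 and 51.12 CPM of Tapbp. In Training_NR_noPT, replicate 3 was high in H2-Ab1 (39.12 CPM), H2-DMa (6.572 CPM) and Cd74 (130.6 CPM), and replicate 1 in Nlrc5 (9.051 CPM). In Training_noNR_PT, replicate 2 was high in Nlrc5 (7.163 CPM) and Tapbp (42.98 CPM). In Training_noNR_noPT, replicate 3 was high in B2m (224.2 CPM) and Ctss (21.27 CPM), and replicate 5 was lowest in H2-DMb2, at 0 CPM.

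In noTraining_NR_PT, replicate 7 was high in H2-Ab1 (34.65 CPM), H2-Eb1 (39.25 CPM), H2-DMa (4.597 CPM) and Cd74 (116.7 CPM). In noTraining_NR_noPT, replicate 6 was high in H2-Q10 (2.231 CPM) and Ctss (18.96 CPM). In noTraining_noNR_PT, replicate 3 was high in H2-Q7 (12.09 CPM) and H2-Q4 (28.62 CPM), and replicate 8 was lowest in H2-Eb1 (16.72 CPM). In noTraining_noNR_noPT, replicate 3 was high in Tap2 (18.91 CPM) and B2m (199.3 CPM).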

How the results depend on the processing

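Against the 5 members called for running, RLE scaling and DESeq2 also gave 5, where 14.7% and 16.3% of all genes passed. The count was 0 with no filter (3.81% of all genes passed), 3 with groups only (13.9%) and 2 with purification pool added (13.5%). With RIN added it was 3 (12.3%) and with counts summed per session 0 (7.52%). In cohort 2 alone it was 0 (0.42%) and in cohort 1 alone 0 (4.31%). It was 4 without Training_NR_PT replicate 6 (14.4%), 7 without noTraining_noNR_noPT replicate 3 (14.7%) and 4 without Training_NR_noPT replicate 1 (16.3%). Without these 3 libraries it was 8 (17.6%), and leaving them out was a choice made after seeing the data. The running mouse highest in summed class I level, Training_noNR_noPT replicate 3, was kept when these libraries were left out. Leaving out 1 day gave 0 to 11. With the replicate number as a block in place of day the count was 2, where 13.6% of all genes passed. Same-numbered mice did not deviate together (median r 0.008, range -0.33 to 0.29 over 211 pairs, 13 of 62 mice correlating best with their own number), so the numbers are not a pairing. Over all genes, 2035 were called for running, against 1333 with no filter, 1245 per session, 63 in cohort 2, 623 in cohort 1, 1976 with the block and 1036 to 2391 with 1 day or 1 library left out (the highest without Training_NR_noPT replicate 1). For NR the 3 genes called became 0 in cohort 2 and 1 in cohort 1. For running in NR_PT mice, leaving out 1 day gave 0 to 1 members called.

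The summed class I counts had a log2 fold change for running of 0.17, 0.16 with the block, 0.19 without noTraining_noNR_noPT replicate 3 and 0.12 to 0.21 with 1 day left out. For PT the sum was 0.0328 in cohort 2 alone and -0.0628 to 0.005 with 1 day left out. Values on the other side of 0 were, for running, H2-DMa at -0.0045 in cohort 2 and -0.0341 to 0.1288 with 1 day left out (lowest without day 4). For NR they were H2-Q10 at 0.0156 with groups only, 0.5526 in cohort 2 and -0.3969 to 0.1558 with 1 day left out (above 0 without day 2 or day 4), and in cohort 2 H2-Ab1 at 0.0525, H2-Eb1 at 0.0105, Cd74 at 0.0092, Tapbp at 0.0077 and Ctss at 0.18. The correlations of H2-Aa with Cd79a and Pecam1 were -0.042 and -0.0481 in cohort 2. The cause of these changes was not tested. Low counts limit H2-Q10, H2-DMb2, H2-Ob and Ciita.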

Other observations

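Interferon-induced genes are known to include much of the MHC pathway, and lists of them were set beside it. Of 19 type I interferon response genes tested, all had a log2 fold change above 0 for running (median 0.24). By edgeR 5 were called higher, where 8.41% of all tested genes were. These were the antiviral genes Rsad2 (0.59, adjusted p = 0.000659), Oas2 (0.38, 0.00453), Xaf1 (0.28, 0.0097), Ifit3 (0.30, 0.0315) and Bst2 (0.28, 0.0336). Of 13 interferon-inducible GTPase genes all were above 0 for running (median 0.27) and edgeR called 0, with 2 at an unadjusted p below 0.05. When noTraining_noNR_noPT replicate 3 was left out, edgeR called 11 of the 19 and 5 of the 13 as higher, with medians of 0.31 and 0.37, where 14.7% of all genes passed. By supplement arm the direction was not uniform. In noNR_noPT mice 11 of 19 interferon response genes and 9 of 13 GTPase genes were below 0 for running (medians -0.02 and -0.07), and without that library 4 and 1 were (medians 0.16 and 0.35).

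For NR all 19 interferon response genes and all 13 GTPase genes were below 0, with medians of -0.32 and -0.39, and 14 and 11 of them had an unadjusted p below 0.05, against 5.69% of all genes. edgeR called 0 of either list, where 0.0206% of all genes passed. With noTraining_noNR_noPT replicate 3 left out, the medians were -0.26 and -0.31, with 14 and 9 at an unadjusted p below 0.05 and 0 called. In Training_PT mice the lists were split, with 6 of 19 and 7 of 13 genes above 0 for NR. Summed GTPase levels were 91.3, 117 and 265 CPM (lowest, median, highest) in NR mice, against 96.7, 130 and 645 CPM in mice without NR, and the ranges overlapped, with the highest value in that library. Tgtp2 had the lowest estimate of the GTPase genes for NR, at -1.01 ± 0.26 (edgeR adjusted p = 0.331), and it was -0.90 ± 0.25 without that library (adjusted p = 0.458). Replicate 8 of noTraining_noNR_noPT, with a summed GTPase level of 265 CPM, stayed in these fits.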
